A study of Mus musculus with 8 samples.

Results

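The cells examined were later neutrophil progenitors of mouse bone marrow, chosen by raw counts of unique molecular identifiers (UMIs), each of which marks 1 captured RNA molecule. A member had 1 or more Cebpe UMIs, 2 or more Fcnb UMIs and no UMI of Ly86 or Ms4a2, in a cell with at least 1000 UMIs and under 10% of them in mitochondrial genes. The rule found 317 members among 46159 cells kept, which is 0.687%. The 8 libraries each came from 1 wild-type mouse, of a strain not given in the labels, and held bone marrow cells that were lineage-negative and c-Kit-positive. Each age was represented by a male and a female. Young mice were 14 weeks of age and middle-aged mice 50 weeks. Old mice had reached 78 or 79 weeks, and the oldest group, called very old here, 95 weeks. No mouse carried a treatment or a modified allele in the labels. The labels put the very old mice in another library series than the other 6 mice, so that the effect of this series and that of being very old cannot be told apart. The question was how these progenitors differ from one another and between ages, with the mouse as the replicate.

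Neutrophils fill their granules in sequence as they mature. Progenitors first make the proteases and peroxidase of the primary granules, and later switch to the antimicrobial proteins of the secondary granules, a step that needs the transcription factor Cebpe. Fcnb encodes ficolin-B, a lectin of immature neutrophils, and S100a8 and S100a9 encode the pair of calcium-binding proteins that fills the cytosol of the mature cell. The c-Kit gate selects immature cells, so it can set how many of these progenitors, which lose Kit as they mature, were captured.

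The markers that the rule did not use went with the label. S100a8 UMIs were present in 314 of the 317 members and S100a9 UMIs in 281. Erythroid reference cells, defined by 2 or more Klf1 and 1 or more Gata1 UMIs, gave the background from free RNA. Their S100a9 level was between 0.111 and 10.8 CPM (UMIs of the gene per 1000000 UMIs), against 797 to 61345 CPM in the members of the 8 mice. Genes of mature neutrophils were partly present: Mmp8 was found in 1 member and Ly6g in 16, while the mature neutrophil list of 22 genes summed to 1570 to 4359 CPM against 447 to 768 CPM in Cebpe cells without any Fcnb UMI. The median member held 15972 UMIs, 6 of Cebpe and 3 of Fcnb. Just inside the Fcnb threshold lay 120 members with exactly 2 UMIs, and just outside lay 338 cells with 1 that met every other condition. Those with 1 had 2635 CPM of S100a8 and 308 CPM of Camp, averaged over mice, and those with 2 had 8683 and 1997 CPM. The Camp level of the latter rests on 3 cells with 877, 696 and 388 Camp UMIs, where the next cell held 24. The genes that chose the members, Fcnb (chr2:28076378-28084885 of GRCm38, minus strand) and Cebpe (chr14:54710360-54712174, minus strand), were at 160 to 445 CPM and 279 to 560 CPM in the members of the 8 mice. A further 5152 Cebpe cells without any Fcnb UMI served as the comparison population. The cells with 1 Fcnb UMI lay nearer to the members, with Elane at 13664 CPM against 15320 CPM in members with 2 and 5484 CPM in cells with 0.

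The number of members varied more within ages than between them. They were 0.548% of cells in the young male (28 cells) and 0.806% in the young female (57 cells). The middle-aged male had 0.862% (43 cells) and the middle-aged female 0.163% (8 cells). The old male had 2.28% (119 cells), which was 37.5% of all members, and the old female 0.249% (15 cells). The very old male and female had 0.198% (11 cells) and 0.496% (36 cells). The values span 14.0-fold, and the old male lay above the other 7 mice. An exact two-sided permutation test of the 4 ages gave p = 0.752 (adjusted p = 1 over 8 tests), where the smallest possible p was 0.00952. The 4 old and very old mice averaged 0.806% against 0.677% in the 2 young mice (exact permutation p = 1, smallest possible 0.0667). Without the old male the difference turned to 0.363 percentage points lower in old and very old mice.

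As a share of Cebpe cells, members ranged from 1.59% in the middle-aged female to 13.4% in the old male, with a mean of 5.11% ± 3.98 (SD, n = 8 mice). The ages again overlapped (exact permutation p = 0.857). Within each of the middle-aged and old pairs, the exact binomial intervals of the male and the female did not overlap, at 5.46% to 9.92% against 0.689% to 3.11% and at 11.3% to 15.9% against 1.03% to 3.02%. These intervals cover counting error only.

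**Figure D1:**
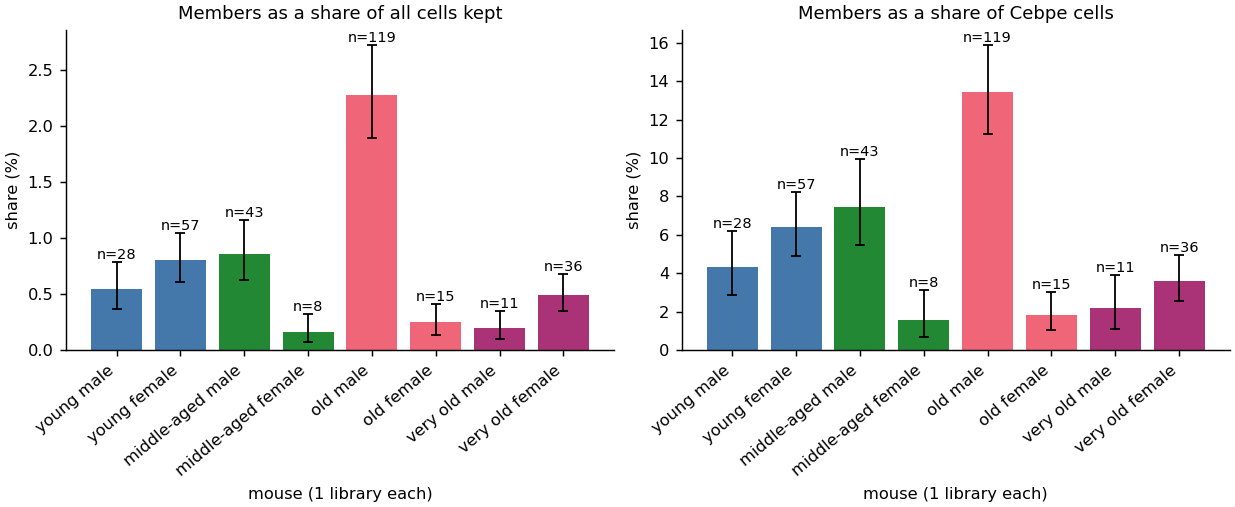
Members per mouse as a percentage of all cells kept (left) and of Cebpe cells without Ly86 and Ms4a2 UMIs (right), with the number of members above each bar and exact 95% binomial intervals as error bars. The old male stands above the other 7 mice in both panels, at 2.28% and 13.4%.

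The members were not uniform in the genes of the secondary granules. Camp encodes the cathelicidin peptide, Ngp the neutrophilic granule protein and Ltf lactoferrin. Of the 317 members, 162 had no UMI of these 3 genes and 261 had fewer than 20 in all, whereas 33 had 500 or more. A line at 100 UMIs, set after the values were seen, separated 44 granule-rich members (13.9%) from 273 others. This is a cut through a range and not a cell type, with 12 members between 20 and 99 UMIs and 11 between 100 and 499. The granule-rich members were no deeper than the rest, with a median of 14250.5 UMIs against 16178.

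The granule-rich members also differed in lactoferrin. In 14 of them no Ltf UMI was found, and these held a median of 270 Camp UMIs, 39 Ngp UMIs and 294 Elane UMIs per cell. Elane encodes neutrophil elastase of the primary granules, and every one of the 14 cells had between 133 and 451 UMIs of it. In the other 30 granule-rich members Ltf was present at a median of 66 UMIs, Camp at 837 and Ngp at 512. There Elane had a median of 1 UMI, with 5 or fewer in 20 of the 30 cells and 100 or more in 5. Mpo, the myeloperoxidase gene, had a median of 99 UMIs in the 273 other members, 62.5 in the granule-rich members without Ltf and 1 in those with Ltf. Lcn2, which encodes the iron-siderophore-binding lipocalin 2, had medians of 0, 2.5 and 171 UMIs in the same order. Sorted by Ltf, these cells thus ranged from Camp beside high Elane to Ltf and Lcn2 with Elane nearly gone in most. Whether single cells pass through these states in that order was not tested. Both kinds of granule-rich cell were found in the same 6 mice. Since these cells were defined by their own counts, no test was made of these levels.

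**Figure D2:**
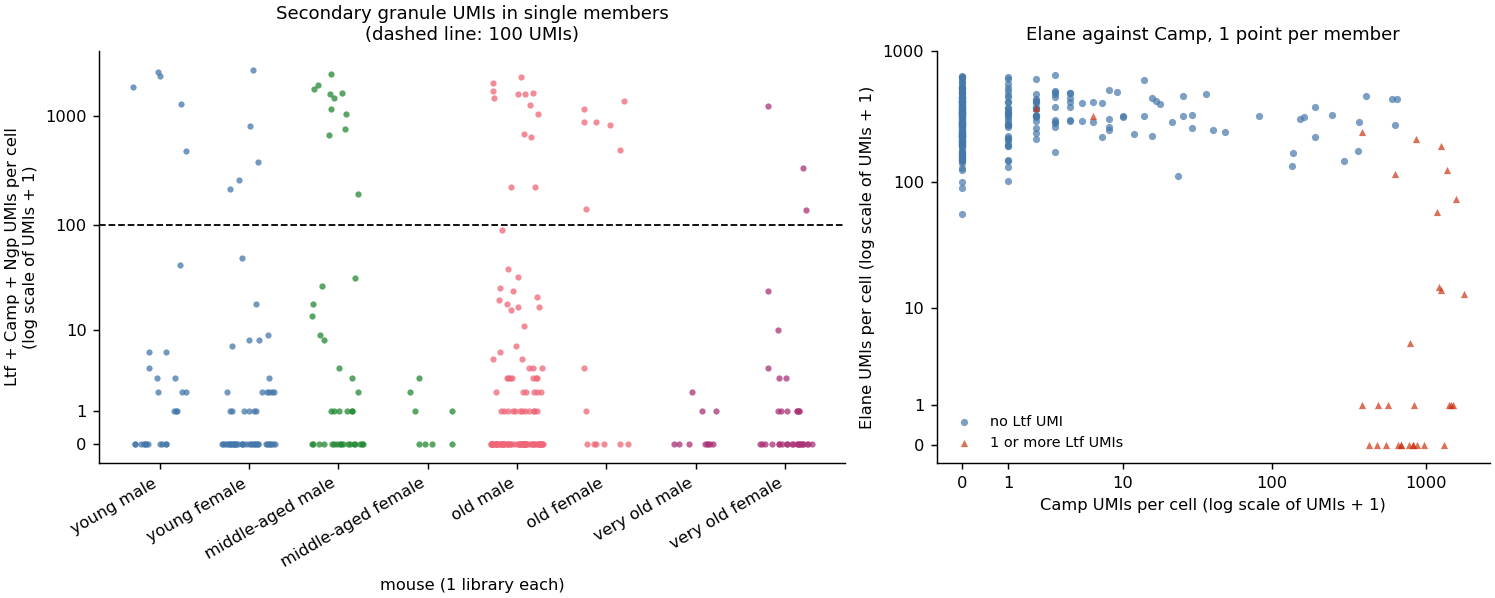
Left, UMIs of Ltf, Camp and Ngp summed per member by mouse, on a log scale, with a dashed line at 100. Right, Elane against Camp UMIs for the 317 members, where triangles are cells with Ltf UMIs: Elane stays high as Camp rises and is at a median of 1 UMI in the 30 granule-rich members with Ltf.

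Levels were also summed per mouse in the 3 populations. Elane stood at 5484 ± 1517 CPM in Cebpe cells without Fcnb (SD, n = 8 mice), at 17448 ± 2597 in members below 100 granule UMIs (n = 8) and at 7800 ± 3247 in granule-rich members (n = 6). The fall between the last 2 was seen in 6 of 6 mice. Prtn3, which encodes proteinase 3, ran through 6079, 18199 and 6708 CPM, Mpo through 4838, 6095 and 1841 CPM, and Ctsg, the cathepsin G gene, through 4273, 7686 and 1327 CPM. These 4 primary granule genes had their highest mean in the middle group, which lay above Cebpe cells without Fcnb in 8 of 8 mice for Elane, Prtn3 and Ctsg and in 7 of 8 for Mpo. S100a9 rose at each step, from 142 ± 202 to 3365 ± 1819 and 120317 ± 24265 CPM, and S100a8 from 293 to 6811 and 93792 CPM. Camp, Ngp and Lcn2 stood at 109, 14.1 and 29.8 CPM in the middle group. In the granule-rich group Lcn2 was at 7864 ± 2532 CPM, while Camp and Ngp, which defined it, were at 46221 and 22710 CPM.

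The cycling genes Mki67 and Top2a had their lowest mean where Elane was highest. Mki67 was at 114 ± 17.1 CPM in Cebpe cells without Fcnb, 45.2 ± 16.7 CPM in members below 100 granule UMIs and 186 ± 51.2 CPM in granule-rich members. The middle group was the lowest in 8 of 8 mice against the first and in 6 of 6 against the last. Top2a, the DNA topoisomerase of dividing cells, followed with 197, 104 and 285 CPM. Other cycling genes were not summed by these groups, so whether they shared this pattern was not tested. In all members, granule-rich ones included, the G2/M list summed to a median of 4641 CPM, against 4752 CPM in Cebpe cells without Fcnb. The S-phase list summed to 3054 and 3635 CPM, and Hmgb2 was higher in members (1318 against 1050 CPM). Mki67 UMIs were present in 109 of the 273 members below the line (39.9%) and in 72.7% of the 44 granule-rich members. Among the latter they were found in 24 of the 30 with Ltf and in 8 of the 14 without. Genes of the immature state went down through the groups. Cd34, a progenitor surface gene, was at 174, 13.7 and 3.57 CPM, and Cebpa, which starts the granulocyte programme, at 76.5, 37.2 and 14.6 CPM.

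**Figure D3:**
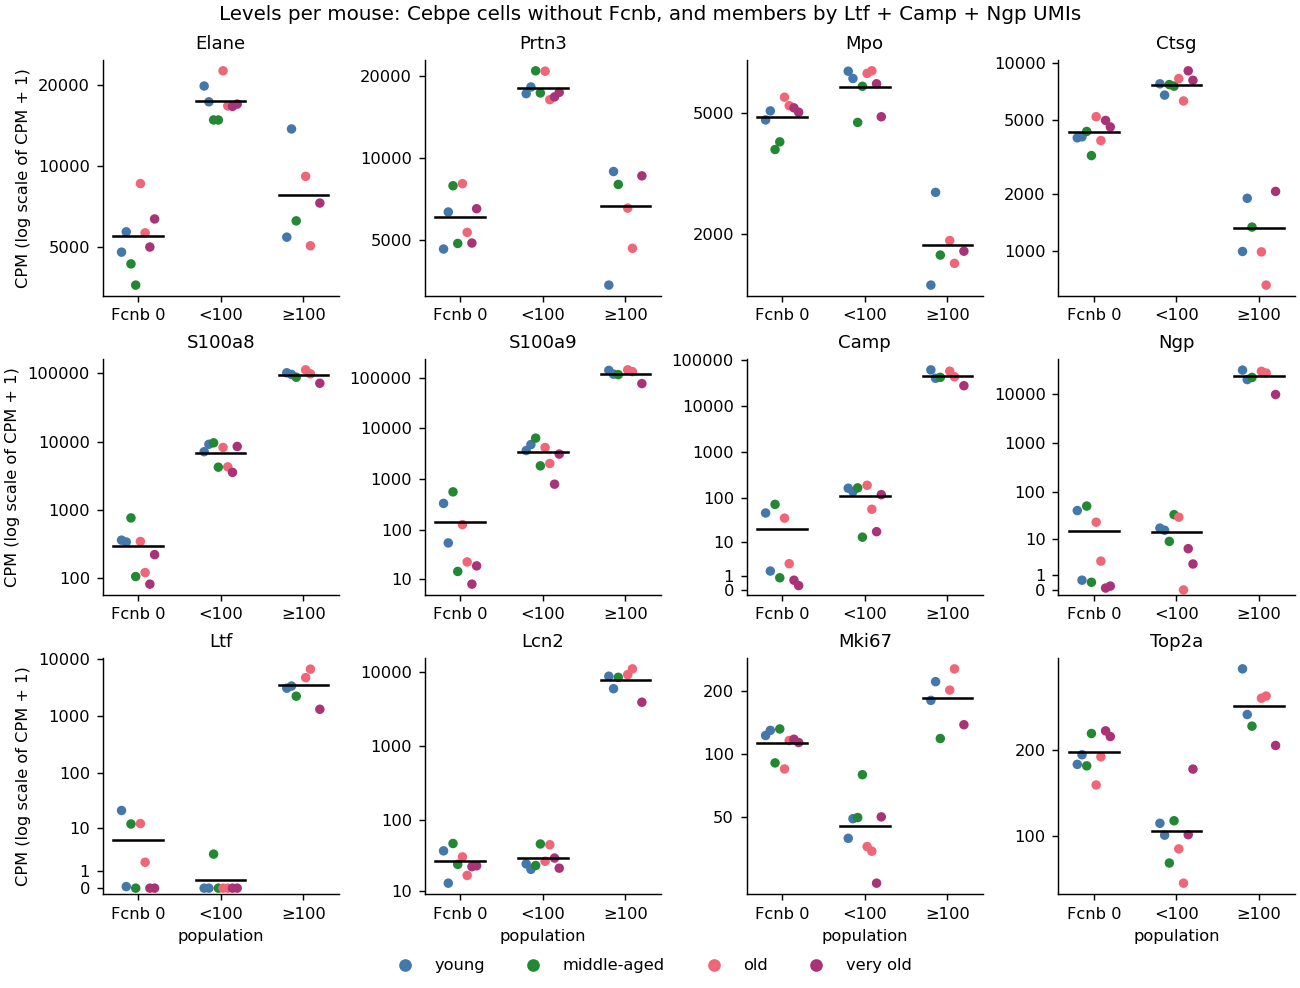
CPM per mouse (points, coloured by age; the line is the mean) on log scales for 12 genes in Cebpe cells without Fcnb (8 mice) and in members with under 100 (8 mice) or 100 and more (6 mice) UMIs of Ltf, Camp and Ngp. Elane, Prtn3, Mpo and Ctsg peak in the middle population, where Mki67 and Top2a are lowest, and S100a8 and S100a9 rise at both steps.

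Fcnb went with the share of granule-rich cells, but was not higher in those with Ltf than in those without. Its median was 3 UMIs in the 273 other members, 16.5 in granule-rich members without Ltf and 10.5 in those with Ltf. Granule-rich cells were 3 of 120 members with 2 Fcnb UMIs (2.5%), 5 of 106 with 3 to 5, 16 of 62 with 6 to 15 and 20 of 29 with more than 15 (69.0%). Mean Camp over mice was 1997, 3151, 11511 and 36666 CPM in these 4 bins, and mean Cebpe 365, 408, 496 and 745 CPM. These means use only mice with 5 or more cells in the bin, which were 8, 6, 5 and 2 mice in the same order. The bin above 15 held cells of 5 mice.

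Further genes separated the members from Cebpe cells without Fcnb in every mouse, as a description of the 2 populations that carries no test. At a mean of at least 100 CPM in the higher population, 248 genes were higher in members in 8 of 8 mice and 411 were lower. Cybb, the catalytic subunit of the NADPH oxidase, had 162 ± 163 CPM in members and 5.33 ± 2.09 CPM in the others (SD, n = 8 mice). The oxidase genes Cyba (1117 against 338 CPM) and Ncf4 (199 against 61.3 CPM) were also higher in 8 of 8 mice. Pglyrp1, which encodes a peptidoglycan recognition protein, stood at 630 against 116 CPM, and Hp, the haptoglobin gene, at 921 against 185 CPM. Cebpd (229 against 73.4 CPM) and Cebpb (203 against 95.2 CPM), factors of the same family as Cebpe, were higher, and Irf8, the factor of the monocyte and dendritic branch, was lower (4.27 against 29.9 CPM). Among the genes lower in members were Cpa3 of mast cell and basophil progenitors (1.94 against 169 CPM) and Cd34.

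Promoters of the genes that moved together were searched for the C/EBP-type motif TTGCNNAA on both strands, where N is any base, in the 250 bases before the start site given by RefSeq on GRCm38.p6. The motif was found in 6 of 15 secondary granule promoters (40%), in 0 of 9 primary granule promoters (of 8 genes, 1 with 2 starts) and in 9.56% of all 32851 promoters in the table. Camp, Chil3 and Olfm4 are among the 9 secondary granule promoters without a match. A match is a string of letters and not a shown binding site. The promoters of Fcnb, Ngp and Ltf are printed with their matches in capitals, and that of Elane as a primary granule gene without one.
Fcnb (chr2:28084879-28085128, - strand): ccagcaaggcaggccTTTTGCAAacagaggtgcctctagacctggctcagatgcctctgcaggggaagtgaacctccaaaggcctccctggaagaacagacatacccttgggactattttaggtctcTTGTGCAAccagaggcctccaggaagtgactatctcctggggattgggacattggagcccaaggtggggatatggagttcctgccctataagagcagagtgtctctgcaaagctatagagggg
Ngp (chr9:110419558-110419807, + strand): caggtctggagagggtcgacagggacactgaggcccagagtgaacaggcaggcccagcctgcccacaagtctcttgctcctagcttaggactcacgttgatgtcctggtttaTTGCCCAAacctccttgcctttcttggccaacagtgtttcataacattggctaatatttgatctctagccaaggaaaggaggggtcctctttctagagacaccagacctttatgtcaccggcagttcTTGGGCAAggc
Ltf (chr9:111019042-111019291, + strand): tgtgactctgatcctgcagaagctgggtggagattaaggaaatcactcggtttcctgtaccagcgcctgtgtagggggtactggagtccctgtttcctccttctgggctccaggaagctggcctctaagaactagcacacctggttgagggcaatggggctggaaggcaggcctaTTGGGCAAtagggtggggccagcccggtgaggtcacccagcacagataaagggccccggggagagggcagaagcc
Elane (chr10:79886062-79886311, + strand): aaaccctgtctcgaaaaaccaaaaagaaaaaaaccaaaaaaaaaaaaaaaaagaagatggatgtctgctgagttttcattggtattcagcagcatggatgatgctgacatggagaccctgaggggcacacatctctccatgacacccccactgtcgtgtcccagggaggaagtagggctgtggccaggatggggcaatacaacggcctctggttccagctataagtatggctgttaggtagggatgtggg
The Fcnb window holds 2 matches, which begin 235 and 123 bases before the start, the Ngp window 2 at 138 and 11 bases, and the Ltf window 1 at 75 bases.

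With age, no gene of the members passed the test when all members and mice were fitted, and the calls of other settings varied. UMIs were summed per mouse and 4778 genes were tested with edgeR's quasi-likelihood test on age and sex. At an adjusted p under 0.05, 0 genes (0%) differed between the 4 old and very old mice and the 2 young mice, 0 (0%) between middle-aged and young, 0 (0%) between old and young and 0 (0%) between very old and young. A test of any difference among the 4 ages also called 0 (0%), against 85 of 4366 (1.95%) when the 44 granule-rich members were left out and 2 to 135 when 1 mouse was left out. With age in weeks as a straight line 1 gene was higher, Olfm4 (adjusted p = 0.0357 by edgeR). All of the comparisons with young mice share the same 2 mice. At an unadjusted p under 0.05 there were 57 genes higher and 89 lower in old and very old mice, and DESeq2 also called 0, with 13 and 8 genes at an unadjusted p under 0.05. In the other 3 comparisons edgeR gave 118 higher and 155 lower at an unadjusted p under 0.05 in middle-aged mice, 65 and 42 in old mice and 116 and 133 in very old mice. DESeq2 called 0 in each of these as well, with 34 and 52, 6 and 5, and 45 and 34 genes at an unadjusted p under 0.05. All 4 older mice lay above both young mice for 237 genes (4.96%) and below both for 262 (5.48%). A sum over all members does not by itself separate fewer granule-rich cells from less granule RNA per cell, so values with these cells set apart are also given below.

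The primary granule genes differed little between young mice and the 4 old and very old mice, and were lower in fitted value in the middle-aged mice without passing the test. Elane stood at 17234 and 17010 CPM in the young male and female and at 12735 and 14804 CPM in the middle-aged pair. In the old pair it was at 21397 and 11354 CPM, and in the very old pair at 16631 and 16055 CPM. The young values lay inside the range of the 4 old and very old mice and above both middle-aged mice. The log2 fold change of old and very old over young was -0.02 ± 0.16 (SE, adjusted p = 1 by edgeR). Prtn3 had 0.03 ± 0.16, Mpo -0.11 ± 0.17 and Ctsg 0.12 ± 0.18. Of the 12 genes of the list 10 had enough counts to test, with a median log2 fold change of 0.04 beside -0.01 over all genes. In middle-aged over young mice the median was -0.24, with 2 genes lower at an unadjusted p under 0.05. Of the 10 values 0 were positive there, beside 2325 of all 4778. Ctsc, which encodes the protease that activates the others, was the only one of the 10 whose groups did not overlap, beside 5.48% of all genes lower in this way. It had 34.4 and 21.4 CPM in young mice against 0 to 19.1 CPM in older ones. These levels are near the floor, since 3 UMIs equal 18.5 CPM in the old female and 17.8 CPM in the very old male. The log2 fold change of Ctsc was -0.84 ± 0.50, and it did not pass (adjusted p = 1 by edgeR). Leaving out 1 mouse moved the value between -3.65 and -0.67.

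The secondary granule genes differed far more between mice of the same age. Camp was at 11291 and 3420 CPM in the young male and female, and at 10523 and 13.3 CPM in the middle-aged pair. It reached 5270 and 20350 CPM in the old pair, against 17.8 and 2754 CPM in the very old pair. The highest and the lowest values thus stood next to each other in age. The fitted log2 fold change of old and very old over young was -0.73 ± 1.66 for Camp, -0.80 ± 1.44 for Ngp, -0.16 ± 0.95 for Ltf and -0.18 ± 1.09 for Lcn2. S100a9 ran from 797 CPM in the very old male to 61345 CPM in the old female, with a fitted log2 fold change of -0.60 ± 1.03 although the mean of the older mice, 22100 CPM, was above the young mean of 20888 CPM. S100a8 had -0.21 ± 0.64. None passed (adjusted p = 1 by edgeR for each). Of 17 listed genes 15 could be tested, with 0 called and a median of -0.18, and Lyz1 and Mmp8 were too low. The median joins opposite values, since it was 1.18 in old over young mice, with 15 of 15 positive, and -1.56 in very old over young mice, with 1 of 15 positive. Over all 4778 genes 2402 and 2344 values were positive in these 2 comparisons. None of the 15 passed in either. Leaving out the middle-aged female gave lower S100a9, Camp, Ngp and Chil3 in older mice, with log2 fold changes of -1.34, -1.87, -1.84 and -1.45, and leaving out the middle-aged male gave the first 3. When each mouse was left out in turn, the log2 fold change ran from -3.81 to 0.84 for Camp and from -3.88 to 0.65 for Ngp. It ran from -1.90 to 0.53 for S100a9 and from -5.73 to 0.65 for Chil3. Without the very old mice, which are of the other library series, the log2 fold change of old over young was 1.84 for Camp, 1.43 for S100a9 and -0.04 for Elane, and none of these 3 passed. With all mice but without granule-rich members, 9 genes of the list could be tested. Their median was 0.06 in old over young mice, with 6 positive, and -0.38 in very old over young mice, with 2 positive. Over all 4366 genes tested there 2164 and 2216 were positive. Leaving these cells out removes most Camp, Ngp and Ltf UMIs by construction.

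The granule-rich members were spread unevenly over the mice. They were 5 of 28 members in the young male, 5 of 57 in the young female and 11 of 43 in the middle-aged male. The old male had 13 of 119, the old female 7 of 15 (46.7%) and the very old female 3 of 36. The middle-aged female had 0 of 8 and the very old male 0 of 11, which allows shares of up to 36.9% and 28.5% (exact 95% interval). Since Camp, Ngp and Ltf define these cells, a mouse without them is low in the 3 genes by construction. Within granule-rich members Camp was at 28248 to 62321 CPM in the 6 mice that had them. A single cell held 62.2% of all Camp UMIs in the very old female's members, 50.2% in the young female's and 31.9% in the young male's. To compare cells at equal depth, each member was thinned to 5000 UMIs, which left out 1 old male and 1 very old female cell. A member with 2 or more UMIs of the 3 genes was then found in 25% and 21.1% of young, 37.2% and 25% of middle-aged, 24.6% and 53.3% of old and 0% and 17.1% of very old male and female members. The exact permutation test of the 4 ages gave p = 0.2, and p = 0.0476 without the old male (neither adjusted over the 8 tests). Without thinning the shares ran from 9.09% to 53.3%. In erythroid reference cells they were 0% thinned and at most 0.426% unthinned, at median depths of 22315 to 38033 UMIs against 10901 to 20984 in members. Mki67 UMIs were found in 9.09% to 33.3% of thinned members (exact permutation p = 0.552). Unthinned, they were found in 36.1% to 65.1% (exact permutation p = 0.019, not adjusted). The middle-aged pair was highest there, at 65.1% and 62.5%, and its members were also among the deepest, with medians of 20984 and 18844.5 UMIs. The young pair had 53.6% and 47.4%. The old pair had 36.1% and 40%, and the very old pair 36.4% and 36.1%, so all of these lay below both young mice. Their median depths were 16337, 10901, 13469 and 12830 UMIs, against 17223.5 and 14383 in the young pair. Thinned, the old and very old mice overlapped the young ones, at 9.09% to 33.3% against 17.9% and 15.8%. The part of depth in the unthinned difference was not tested. Erythroid reference cells, which cycle, had Mki67 UMIs in 49.4% to 76.0% of thinned cells, so that they set no background for this gene.

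**Figure D4:**
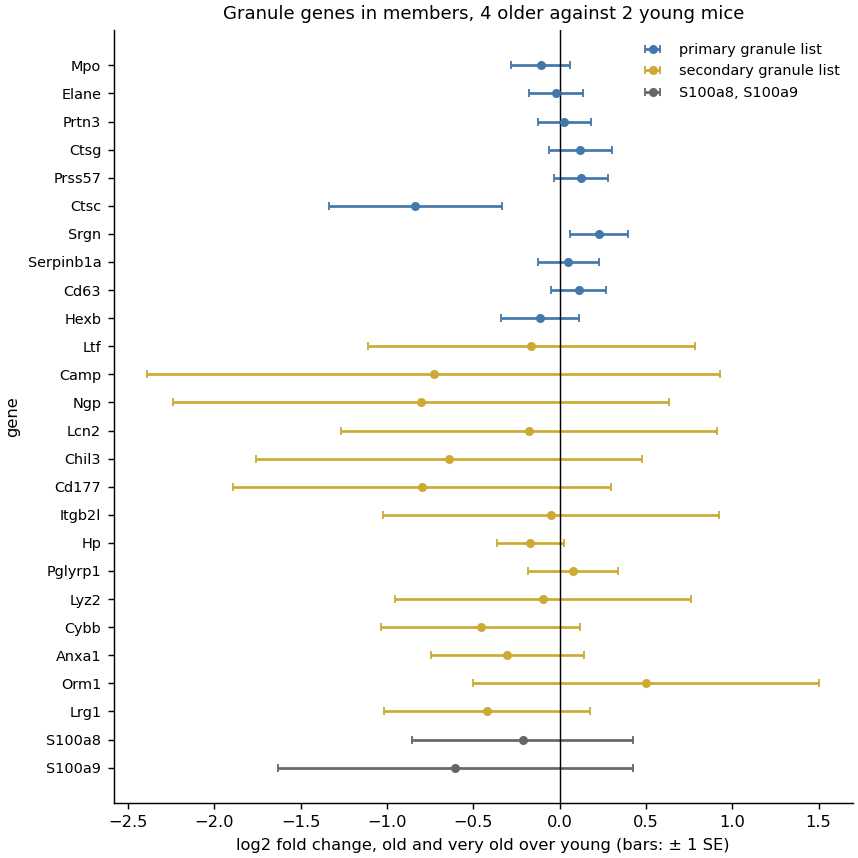
Fitted log2 fold change in members, 4 old and very old over 2 young mice, with ± 1 SE, for the tested genes of the primary and secondary granule lists without Olfm4 and for S100a8 and S100a9. Elane, Prtn3, Mpo and Ctsg lie within 0.12 of 0, with SEs of 0.16 to 0.18, and Camp and Ngp, at -0.73 and -0.80, have SEs of 1.66 and 1.44.

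Genes of protein folding in the endoplasmic reticulum, where granule proteins are made, stood higher in the middle-aged mice. Their list of 19 genes summed to 10194 and 11397 CPM in the members of the middle-aged male and female. The young mice had 7075 and 7743 CPM, the old mice 7189 and 5308 CPM and the very old mice 6814 and 7342 CPM. Both middle-aged mice were thus above the other 6, and so they were for 14 of the 18 tested single genes, where 507 of all 4778 genes (10.6%) showed that pattern. Hsp90b1, an Hsp90-type chaperone, was at 1012 and 1204 CPM there and at 431 to 628 CPM elsewhere. Calr, the calcium-binding chaperone calreticulin, was at 1179 and 1584 CPM against 585 to 905 CPM. Hspa5, the chaperone that controls the unfolded protein response, was at 1312 and 1617 CPM against 523 to 921 CPM. In the test of middle-aged against young, 10 of 18 tested genes of the list were higher and 1 was lower at an unadjusted p under 0.05. Of all 4778 genes 118 were higher and 155 lower in this way. In the list 0 passed the adjusted threshold. The median log2 fold change of the list was 0.49, and Hsp90b1 had 0.79 ± 0.19 (SE, adjusted p = 0.458 by edgeR).

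When the 44 granule-rich members were left out, a choice made after the values were seen, 5 of 18 list genes rose in middle-aged against young mice, where 12 of 4366 genes (0.275%) were called higher in all and 14 (0.321%) lower. They were Hsp90b1 (log2 fold change 0.79, adjusted p = 0.0187), Calr (0.69, adjusted p = 0.0212), Manf (0.75, adjusted p = 0.0248), Creld2 (1.01, adjusted p = 0.0378) and Hspa5 (0.55, adjusted p = 0.0424) by edgeR. Manf and Creld2 encode secreted factors of the same stress response. The calls in the other direction included Elane (-0.43, adjusted p = 0.0378 by edgeR). In Cebpe cells without Fcnb the list summed to 9296 and 8088 CPM in the middle-aged mice and to 6946 to 7499 CPM in the other 6. There 16 of 19 genes had a positive log2 fold change, with a median of 0.21, and 0 passed, beside 48 of 11758 genes (0.408%) called higher. Erythroid reference cells of the same libraries gave 3060 and 3404 CPM in middle-aged mice and 2606 to 3228 CPM in the others. Other lists moved in the same comparison. The 3 tested erythroid genes were all lower in middle-aged members at an unadjusted p under 0.05, with a median log2 fold change of -0.91, and in Cebpe cells without Fcnb 9 of 12 were called lower, with a median of -1.17, beside 72 of 11758 genes (0.612%) called lower. The ribosome biogenesis list had a median of 0.48 in members, with 11 of 13 values positive and 0 called, and of 0.23 in Cebpe cells without Fcnb, with 14 of 14 positive. Of the genes tested in members, 2325 of 4778 were positive in members and 2593 of 4772 in Cebpe cells without Fcnb. The part of the erythroid and ribosome lists in the chaperone result was not tested. The middle-aged female contributed 8 members, of which 2 had no S100a8 UMI, and these 8 also held the highest eosinophil (259 CPM) and megakaryocyte (53.2 CPM) marker sums of the 8 mice. The part of these cells in the chaperone result was not tested. With all granule-rich cells kept, leaving out the middle-aged male or female gave 14 and 9 genes called between middle-aged and young mice, and leaving out the old male or female gave 19 and 24. Leaving out the young male gave 4, and the other 3 mice gave 0.

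**Figure D5:**
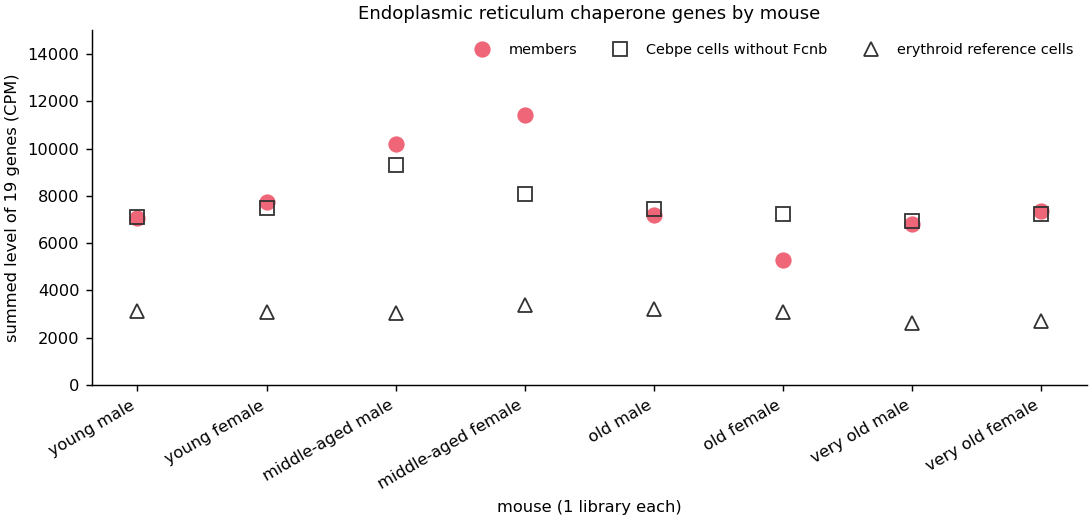
Summed CPM of 19 endoplasmic reticulum chaperone and stress genes per mouse in members (filled circles), Cebpe cells without Fcnb (squares) and erythroid reference cells (triangles). The members of both middle-aged mice, at 10194 and 11397 CPM, lie above those of the other 6 mice.

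Of the remaining lists, 0 genes passed in any comparison between ages with all members. Without granule-rich members, 4 passed in middle-aged over young mice: the tubulin gene Tubb4b of the G2/M list was higher (log2 fold change 0.82), and Slpi (-1.04) and Ly6c2 (-0.82) of the mature neutrophil list and the erythroid Car2 (-1.49) were lower. The S-phase list (37 of 39 tested) had a median log2 fold change of -0.06 in old and very old over young mice and the G2/M list (38 of 50) of -0.15. The NADPH oxidase list (6 of 6) had -0.19 and the myeloid transcription factors (15 of 23) -0.05. The interferon response list (12 of 33) had a median of 0.28, with 11 of the 12 values positive, and MHC class I (10 of 13) one of 0.30, with 9 of 10 positive. Over all 4778 genes 2321 values were positive. In Cebpe cells without Fcnb the medians of these 2 lists were 0.12 and 0.14. In members the groups did not overlap, with older mice higher, for 1 and 2 genes of these lists, beside the 4.96% of all genes given for that pattern. In the other direction, 1 MHC class I gene was lower in all 4 older mice than in both young mice. Of the G2/M list 8 of 38 genes were lower in all 4 older mice than in both young mice, beside 5.48% of all genes.

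The change with age differed from that of Cebpe cells without Fcnb for 5 of 11338 genes (0.0441%), by the interaction term of an edgeR fit with the mouse as a block. The difference of the log2 fold changes was 1.41 ± 0.16 for S100a9 (SE, adjusted p = 2.47e-15 by edgeR), 1.49 ± 0.23 for Camp, 1.96 ± 0.28 for Ngp and 3.72 ± 0.46 for Ltf. Leaving out 1 mouse moved the S100a9 value between 0.57 and 2.69, a wider span than its SE, and its adjusted p up to 1 by edgeR. The fifth, Wfdc17 (-6.71 ± 1.41, adjusted p = 0.00423 by edgeR), was too low to be tested in members alone, at 33.2 CPM in the young female's members and at most 6.64 CPM in the other mice. Its value rests on that mouse, since without the young female it was -3.43 (adjusted p = 1 by edgeR), and no change of this gene in members is read from it. Its call was also lost without the old male, without the very old female and when both populations were thinned to 5000 UMIs. In Cebpe cells without Fcnb the first 4 genes were at low levels, with S100a9 at 7.57 to 562 CPM and Camp at 0.265 to 72.9 CPM. There the fitted log2 fold change of older over young was -2.05 for S100a9, -2.81 for Camp, -3.44 for Ngp and -4.94 for Ltf, of which the last 3 passed there. Of these cells 9 were granule-rich by the same line of 100 UMIs, 4 of them in the young male. Without the granule-rich cells of both populations 0 genes were higher and 1, Wfdc17, was lower. Without the young male 0 were higher and 1 lower, and without the very old female 0 were higher and 4 lower.

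Olfm4, the gene of the secondary granule protein olfactomedin 4, had the largest fitted rise but rested on 7 cells. It had no UMI in the members of both young mice, both middle-aged mice or the very old male. The old male had 107 UMIs in 5 of 119 members, the old female 7 in 1 of 15 and the very old female 46 in 1 of 36. The mean of the 4 old and very old mice was 48.7 CPM. A floor of 3 UMIs per library averages 4.81 CPM over both young mice, so this mean was at least 10.1-fold higher, for counting error only. Single cells held up to 46 of the UMIs, so these are not independent events. The groups overlapped, since the very old male was at 0, and the edgeR test across all genes gave an adjusted p of 0.148. It passed under 6 of the other settings and when each of 6 mice was left out, at adjusted p values down to 1.49e-18 by edgeR, while the whole range over settings reached 1. Of the 7 cells, 6 were granule-rich. Among all 46159 cells, 20 had an Olfm4 UMI, 3 of them Cebpe cells without Fcnb.

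UMIs of other cell types' markers were found in the members at levels that differed by list and mouse. The erythroid list of 12 genes summed to 78.6 to 402 CPM per mouse against 411 to 1384 CPM in Cebpe cells without Fcnb, and all 12 had a UMI in some member. The monocyte list summed to 179 to 425 CPM, against 155 to 276 CPM in Cebpe cells without Fcnb, with 8 of 10 genes detected and Klf4 and Ly86 at 0, the latter by the rule. The basophil and mast cell list summed to 78.9 to 140 CPM, with Ms4a2 at 0 by the rule. Stem cell markers reached at most 39.2 CPM, with Fgd5 and Slamf1 at 0, and lymphoid markers at most 27.3 CPM, with Il7r, Ebf1 and Rag1 at 0. The eosinophil list was at 259 CPM in the middle-aged female, all of it Prg2, an eosinophil granule gene, with Epx and Ear1 at 0. That was above its highest sum in Cebpe cells without Fcnb, 192 CPM, and in the other 7 mice it was at most 16.2 CPM in members. The megakaryocyte list was also highest in the middle-aged female, at 53.2 CPM. In young mice the erythroid sum was 135 to 402 CPM and in old and very old mice 92.5 to 242 CPM. Car1, an erythroid carbonic anhydrase, was lower in older mice once granule-rich cells were left out (log2 fold change -1.57, adjusted p = 0.0136 by edgeR, the 1 gene of 4366, 0.0229%, called lower there), and its part in other results was not tested. Leaving out the 55 members with a UMI of Klf1, Gata1, Pf4, Dntt, Siglech or Cpa3 gave 1 gene higher in older mice, Olfm4, and 0 lower.

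The libraries held 83062003 to 150135029 UMIs in 6459 to 8866 barcodes each. The members of a mouse summed to between 150297 and 2042363 UMIs, so the middle-aged female, old female and very old male, with the smallest sums, have the least certain values. Between libraries 271 barcodes were shared, and 1 member's barcode also occurred in another library.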

How the data were processed

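Single-cell RNA was counted in 8 libraries, 1 per mouse, grouped by the labels. The authors deposited a matrix of unnormalised UMI counts for each library, written by Cell Ranger 6.0.0 per the file headers, on mm10 per the submitters' processing notes. The labels and the design text name different Chromium chemistries. Members and gene lists were chosen with earlier results of these data known. Cells with under 1000 UMIs (3260) or 10% or more mitochondrial UMIs (10046 of 59465 barcodes) were left out, and no doublets were called. The mitochondrial filter removed 14 cells that met the rule.

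Member UMIs were summed per mouse, filtered with filterByExpr, scaled by TMM and tested with edgeR 4.0.16 (R 4.3.3, limma 3.58.1) on age and sex, with Benjamini-Hochberg adjustment at 0.05. This leaves 3 residual degrees of freedom. The test adds a median of 11.32 prior degrees of freedom from the trend over all genes. The p-values therefore do not measure the spread of each gene between these mice alone. The SE printed with an edgeR log2 fold change is its absolute value divided by the square root of the test's F value. It was derived from the test and is not a standard error reported by the fit. The difference from Cebpe cells without Fcnb was the interaction in a fit with a term for each mouse. Genes were named by rule: the 10 largest called rises and falls without overlap of old and very old against young, the 2 granule lists with Cebpe, Fcnb, S100a8 and S100a9, members of other lists that passed, and up to 5 genes in each direction of the interaction. Genes of the endoplasmic reticulum list that did not pass, and the genes set against Cebpe cells without Fcnb, were named after their values were seen. Shares were compared by exact permutation over mice (scipy 1.17.1) with Clopper-Pearson 95% intervals. On simulated counts for old and very old against young members, with 200 genes changed in each run, edgeR recovered 39% at a log2 fold of 1 (4529 genes tested), 88.5% at 2 (4596 genes) and 95.5% at 3 (4594 genes). Every simulated gene was given the same spread between mice, the median over genes. These shares therefore do not hold for genes that vary more between mice, such as Camp and Ngp. Alternatives were DESeq2 1.42.0, other filters, rules and depths, and leaving out each mouse.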

Additional observations from a re-analysis of the deposited data

Results flagged for a closer look

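Each of 33 values was examined for a mouse far from the other 3 among the 4 old and very old mice (Dixon's test at 95%), and 8 had one. Chance marks about 1 in 20 groups, and the 8 values are not independent. The old male stood apart in the share of members among cells (2.28%) and among Cebpe cells (13.4%). The old female, with 7 granule-rich cells among 15 members, stood apart in Ltf (3023 CPM), Lcn2 (5061 CPM), Cd177 (228 CPM), Itgb2l (104.7 CPM), Cybb (536 CPM) and Lrg1 (135 CPM).

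The change with age differed between members and Cebpe cells without Fcnb, by an edgeR interaction term, for S100a9 (difference of log2 fold changes 1.41), Camp (1.49), Ngp (1.96), Ltf (3.72) and Wfdc17 (-6.71). Over 10 alternative settings the call held in 7 for S100a9, Ngp and Ltf and in 6 for Camp and Wfdc17. The first 4 calls were lost without granule-rich cells, without the young male and without the very old female, and Camp, Ngp and Ltf turned negative without either mouse. The value of Wfdc17 rests on the young female, without which it was -3.43 and was not called.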

How the results depend on the processing

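The labels give no replicate numbers, so mice of different ages were not paired beyond their sex. Sex, with 1 mouse of each at every age, is a term of the edgeR fits, and the permutation tests of shares do not use it. Differences are old and very old minus young, in percentage points. Leaving out each mouse moved the share of members among cells between -0.363 and 0.331, among Cebpe cells between -2.81 and 1.06, with secondary granule UMIs between -9.12 and 8.66, and with Mki67 UMIs between -2.99 and 5.09. Without 1 young mouse the other is assumed to vary like the other groups. The share of Cebpe cells turned to 0.212 with 4 or more Fcnb UMIs, 0.221 with cells thinned to 5000 UMIs and 2.27 without the very old mice. The granule share turned to -10.2 unthinned and -4.11 at 10000 UMIs, and the Mki67 share to -13.3 unthinned.

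Leaving out each mouse gave 0 to 2 genes higher and 0 to 4 lower in old and very old mice, and 0 to 24 changed in middle-aged, 1 to 27 in old and 1 to 16 in very old mice, and 2 to 135 that differed between any ages, where the fit on all mice called 0. With no low-count filter 2 were higher and 1 lower, 6, 7 and 13 changed, and 33 differed between any ages. With 1 or more Fcnb UMIs 3 were higher, 27, 1 and 5 changed, and 97 differed between any ages. Without granule-rich cells 1 was lower, 26, 0 and 1 changed, and 85 differed between any ages. The test of any ages called 2 with no sex term, with 2 or more Cebpe UMIs, without UMIs of other lineages and with cells of 200 or more genes, and 1 with 4 or more Fcnb UMIs. Age in weeks gave 1 higher. With 4 or more Fcnb UMIs, or without UMIs of other lineages, 1 was higher, and 1 changed in each of old and very old mice. With 2 or more Cebpe UMIs, or with cells of 200 or more genes in place of the UMI and mitochondrial limits, 1 was higher. The settings on 1 Fcnb UMI and granule-rich cells were chosen after seeing the data. The causes were not tested.

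The interaction called 5 genes, 1 without granule-rich cells and 1 to 11 without each mouse. There the difference ranged from 0.57 to 2.69 for S100a9 (0.43 without granule-rich cells), from -2.03 to 3.51 for Camp, from -1.12 to 3.83 for Ngp and from -2.42 to 5.54 for Ltf. It was negative for Camp (-0.54), Ngp (-1.12) and Ltf (-2.07) without the young male and for Camp (-2.03), Ngp (-1.08) and Ltf (-2.42) without the very old female. Changes of 1 log2 unit in members are often missed at this depth for genes of median spread, as the simulation shows, and 3 mice hold 15 or fewer members. Genes of wider spread, such as Camp and Ngp, were not simulated.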
